A study of Homo sapiens with 8 samples.

Results

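A set of 1735 windows of 100 kb, out of 278316 in the 9 deposited window sets, were well measured for SON in both treatments and had a higher signal after the HIF-2α inhibitor PT2399. Each of these windows lies on an autosome, has a log2 concentration of at least 8 with PT2399 and with DMSO, and is at least 0.3 higher with PT2399. Overlapping windows were merged into 447 regions, called the higher regions here, which cover 64.17 Mb. They were taken from 50416 autosomal windows with both concentrations at least 8, called well-measured here, so that 3.44% of such windows qualified. The windows were chosen by their log2 concentrations and the change between them, so the changes below are a description and test nothing.

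Nuclear speckles are bodies between the chromosomes that hold splicing factors, and SON is one of the proteins that form their core. In TSA-seq an antibody to SON brings a peroxidase that deposits tyramide-biotin on nearby chromatin, so that pulled-down DNA is enriched the closer it lies to a speckle. Gene-rich, actively transcribed stretches of the genome are usually near speckles, and gene-poor stretches are usually far from them. HIF-2α is a hypoxia-inducible transcription factor that drives clear cell renal carcinoma once the VHL tumour suppressor is lost, and PT2399 keeps it from pairing with its partner ARNT.

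The cells were 786-O, a human clear cell renal carcinoma line without working VHL, and all libraries come from that single line. Treated cells received 2 µM PT2399 for 3 h and control cells the matching volume of DMSO. Each treatment has 2 SON pulldowns and 2 inputs. In 4 of the 8 libraries the title disagreed with the antibody or treatment field, and the titles were followed. The direction of every change given here rests on the names of the deposited columns, control read as DMSO and treatment as PT2399. There is no value per library to check that reading against, and the deposited lists of lower windows were not used for it. The authors deposited 1 mean per treatment and window, on hg19, with a p-value and an FDR (the expected share of false calls), and the depth of each library is unknown. Neither a value per library nor a spread between replicates can therefore be given, and the deposited FDR is the only measure of error. The labels do not say that the 2 replicates came from separate cultures, so this error may be technical. The 9 window sets are the same libraries cut at starts shifted by 10 kb, so agreement between sets is not replication. Gene positions on hg19 were not used here, so regions are given by position only.

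**Figure D1:**
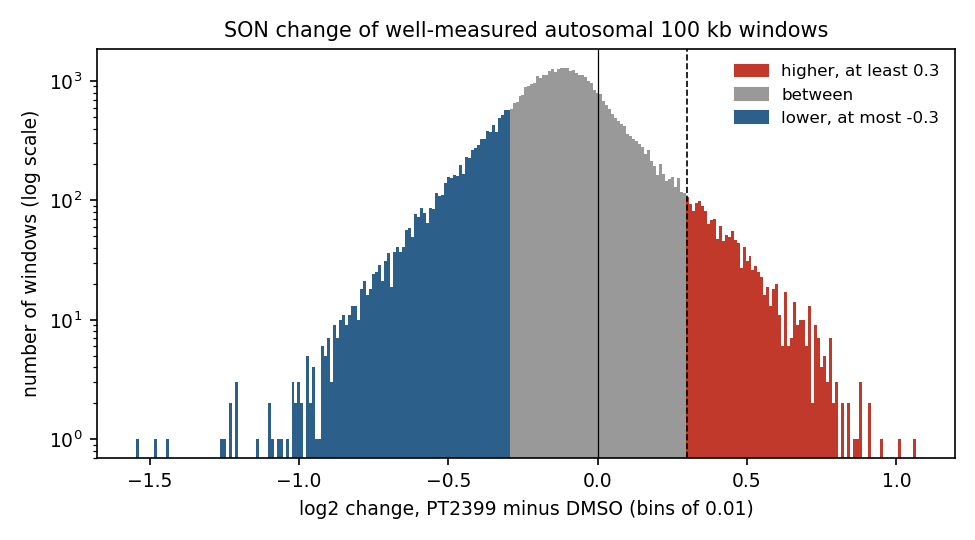
Number of autosomal 100 kb windows with both log2 concentrations at least 8 (log scale) by log2 change, PT2399 minus DMSO, in bins of 0.01. The 1735 higher windows lie to the right of the dashed line at 0.3 and reach 1.06, while the 8414 windows lower by at least 0.3 reach -1.54.

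The higher windows had concentrations of 8.31 to 10.55 with PT2399 (median 8.86), against 8 to 10.25 with DMSO (median 8.41), on the authors' log2 scale. Their median change of 0.40 is a PT2399 level of 132% of the DMSO level, and the range ran from 123% to 208%. The middle of the distribution lay between 0.34 and 0.49 (quartiles), and 418 windows were at least 0.5 higher, 75 at least 0.7 and 2 at least 1. Among all 50416 well-measured windows the median change was -0.12 (quartiles -0.24 and -0.01), so the higher windows stand against a small shift the other way. Mirrored, 8414 windows, or 16.7%, were lower by at least 0.3, in 1246 regions. The limit of 0.3 falls on a smooth slope: 106 windows stood at exactly 0.30 and 115 at 0.29. The first had median concentrations of 8.91 with PT2399 and 8.61 with DMSO, and the second had 8.80 with PT2399 and 8.51 with DMSO. Likewise 111 members had a DMSO concentration less than 0.05 above the minimum of 8, with a median change of 0.44, and 109 windows at least 0.3 higher were left out for lying up to 0.05 below it, with a median change of 0.46.

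Few of these changes passed the authors' own test. In the authors' deposited tables, 17 of the 1735 higher windows had an FDR of at most 0.01, and they lay in 9 regions. Over all 50416 well-measured windows the share called higher at that FDR was 0.0337%, which is the same 17 windows, and nothing is read from the comparison since the rule used the same contrast. At an FDR of 0.05 there were 91 members in 38 regions (background 0.19%), and at 0.1 there were 189 (background 0.401%). The median FDR of the members was 0.317, and 304 members had an FDR above 0.5. In the other direction 1221 of the well-measured windows, or 2.42%, were called lower at an FDR of 0.01 in the authors' deposited tables.

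Windows with like changes had very different FDRs. Among the 17 members at least 0.8 higher, the FDR in the authors' deposited tables ran from 0.000271 to 0.809. A window on chromosome 2 at 38670001 to 38770000 stood at 8.92 with PT2399 and 8.04 with DMSO (change 0.88), and the authors' deposited table gives it an FDR of 0.809. A window on chromosome 4 at 7130001 to 7230000 stood at 9.46 with PT2399 and 8.59 with DMSO (change 0.87), and there the authors' deposited table gives 0.000271. The changes were alike, and the deposited means do not show what separates the FDRs.

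The region on chromosome 4 at 7080001 to 7680000 was the longest of the higher regions, at 600 kb. It held 40 member windows from all 9 sets. Each of the 46 windows that lie inside it was above 0, the lowest at 0.21. Members are above 0 by the rule, and 438 of all 447 regions had every window inside above 0. The median over the members of the chromosome 4 region was 8.98 with PT2399 and 8.46 with DMSO. Beside the window named above, 3 more of its members had an FDR of at most 0.01 in the authors' deposited tables. The windows just outside the region had median changes of -0.25 on the left and -0.12 on the right. An edge lies where windows stop meeting the rule, so nothing is read from that drop. These flanks carried more SON signal than the region's DMSO level, at 9.39 with PT2399 and 9.64 with DMSO on the left. On the right they stood at 8.95 with PT2399 and 9.12 with DMSO. In DMSO the region's members thus lay below both flanks, but members were chosen partly by those DMSO values.

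The highest-ranked region, by number of sets and then by largest change, lay on chromosome 15 at 39750001 to 40050000. Its window of largest change stood at 9.19 with PT2399 and 8.31 with DMSO, a change of 0.88. Its lowest FDR, 0.00184 in the authors' deposited table, belonged to a window at 9.43 with PT2399 and 8.63 with DMSO. All 19 windows inside were above 0. On the left the flank was also higher, with a median change of 0.67 (8.34 with PT2399, 7.6 with DMSO), while the right flank was level at -0.01. A further region of all 9 sets lay 120 kb to the left, at 39320001 to 39630000, where the window of largest change stood at 9.11 with PT2399 and 8.38 with DMSO (FDR 0.0124 in the authors' deposited table). With smaller regions at 39030001 to 39130000 and 40410001 to 40520000 they form a stretch of 1.49 Mb in which 64 of 93 well-measured windows were above 0. Of these 93, 30 were members and so above 0 by the rule, and over all well-measured windows 22.0% were above 0.

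On chromosome 7, the region at 154900001 to 155460000 was the second longest at 560 kb, with 35 member windows, and all 43 windows inside it were above 0. Its window of largest change stood at 9.27 with PT2399 and 8.49 with DMSO. The window of lowest FDR (0.00919 in the authors' deposited table) was another one, at 9.97 with PT2399 and 9.44 with DMSO. Its left flank had less signal and a median change of 1.10 (7.63 with PT2399, 6.53 with DMSO). Towards the chromosome end 6 more higher regions followed, among them 1 of all 9 sets at 156680001 to 156950000, where the window of largest change stood at 9.10 with PT2399 and 8.5 with DMSO. The 3.53 Mb stretch they span had a median change of 0.20 over its 126 well-measured windows. Of these, 3 were called lower at an FDR of 0.01 in the authors' deposited tables. Over all well-measured windows 2.42% were called lower at that FDR.

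Chromosome 3 had 2 regions with members at that FDR. At 126900001 to 127080000 all 9 windows inside were members, and the largest change was 0.82 (9.29 with PT2399, 8.47 with DMSO, FDR 0.00953 in the authors' deposited table). At 184240001 to 184480000 all 14 windows inside were members as well. There the signal was stronger and the change smaller, with 10.13 with PT2399 and 9.67 with DMSO at the window of lowest FDR (0.00477 in the authors' deposited table).

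The other 4 regions with such members were found in fewer than 9 sets. On chromosome 17 at 64420001 to 64620000 lay the largest change of all members, 1.06, with 9.09 with PT2399 and 8.03 with DMSO (FDR 0.00482 in the authors' deposited table). The next lay on chromosome 8 at 141730001 to 141930000, where the window of largest change stood at 9.08 with PT2399 and 8.07 with DMSO, a change of 1.01, which has an FDR of 0.00986 in the authors' deposited table. Its flanks were level, at -0.01 and 0.00. On chromosome 9 at 95870001 to 96070000 the values were 9.12 with PT2399 and 8.35 with DMSO (FDR 0.00766 in the authors' deposited table). The region on chromosome 20 at 56170001 to 56310000 had more signal and a smaller change, 0.49, at 10.14 with PT2399 and 9.65 with DMSO (FDR 0.00405 in the authors' deposited table). For the regions on chromosomes 17 and 8 the DMSO level lay just above the minimum of 8.

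**Figure D2:**
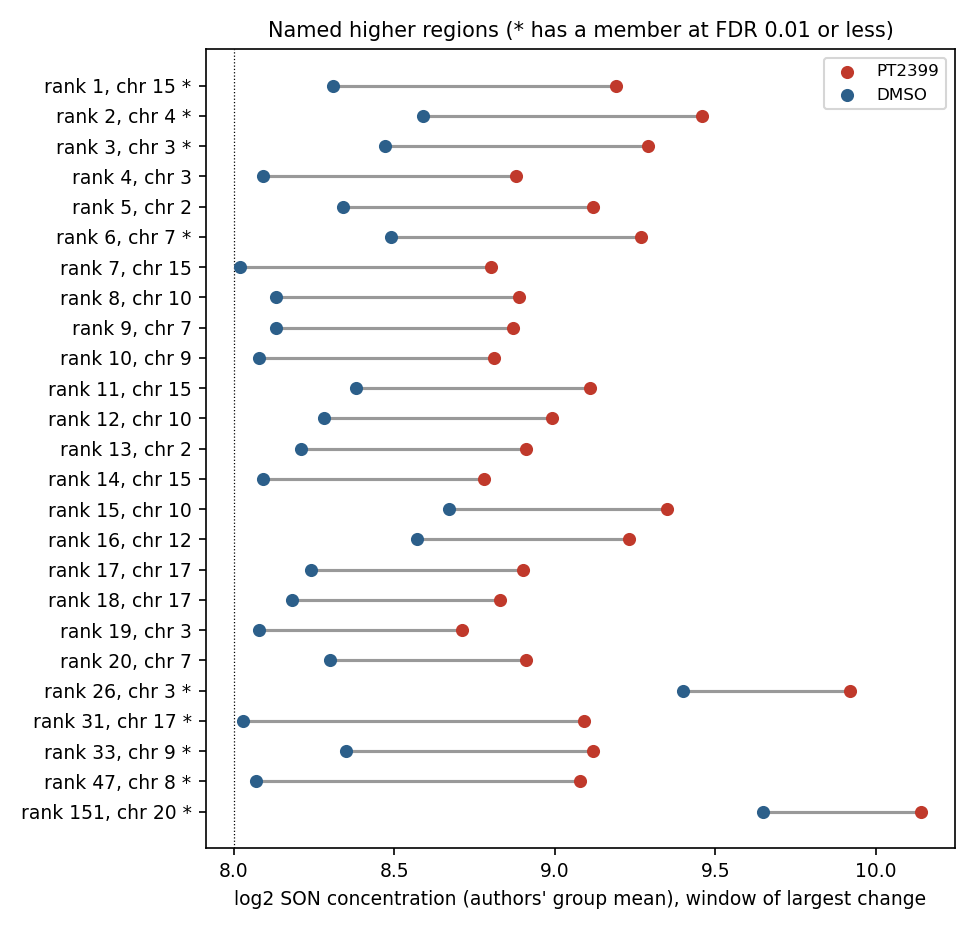
Log2 SON concentration (the authors' group mean) with PT2399 and with DMSO at the window of largest change, for the 20 highest-ranked regions and the 5 others with a member at an FDR of 0.01 or less (starred where such a member exists). Among the first 20 the DMSO points lie between 8.02 and 8.67 and the PT2399 points between 8.71 and 9.46, and the dotted line marks the minimum of 8.

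The remaining regions of the first 20 were also found in all 9 sets, but without an FDR of 0.01. On chromosome 3, 124300001 to 124520000 had its largest change, 0.79, at 8.88 with PT2399 and 8.09 with DMSO, and 12640001 to 12870000 had 0.63, at 8.71 with PT2399 and 8.08 with DMSO. On chromosome 2, 231640001 to 231950000 had 0.78, at 9.12 with PT2399 and 8.34 with DMSO, and 113880001 to 114140000 had 0.70, at 8.91 with PT2399 and 8.21 with DMSO. On chromosome 15 a pair of regions 90 kb apart, 66110001 to 66380000 and 66470001 to 66710000, had 0.78 and 0.69. Within the first of the pair all 17 windows were members. All of these had their DMSO level between 8 and 8.4 at that window, which is close to the minimum.

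Chromosome 10 held 3 regions of this kind. The values were 8.89 with PT2399 and 8.13 with DMSO at 79010001 to 79240000, 8.99 with PT2399 and 8.28 with DMSO at 121230001 to 121470000, and 9.35 with PT2399 and 8.67 with DMSO at 126120001 to 126430000. The last of them had 3 members at an FDR of 0.05 or less in the authors' deposited tables, and the first pair had 0.

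Chromosome 17 held 2 neighbouring regions, 71670001 to 71870000 and 71900001 to 72240000, only 30 kb apart, with largest changes of 0.65 and 0.66. Chromosome 7 held 139100001 to 139320000, with a largest change of 0.74, and 139840001 to 140150000, with 0.61. The region at 139840001 had a lower right flank, at -0.73 (8.47 with PT2399, 9.14 with DMSO), and lay 50 kb from a window called lower at an FDR of 0.01 in the authors' deposited tables. On chromosome 9, 37340001 to 37560000 had 0.73, between flanks of -0.98 and 2.09 that carried little signal (5.53 with PT2399 and 6.23 with DMSO on the left, 6.70 with PT2399 and 4.67 with DMSO on the right). On chromosome 12, 1870001 to 2060000 had 0.66, at 9.23 with PT2399 and 8.57 with DMSO. Of the 20 regions, 18 had every window inside above 0, and 8 had a member at an FDR of 0.05 or less in the authors' deposited tables.

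Over all regions, 30 had members from all 9 sets, 129 from at least 5, and 133 from a single set, which are single windows of 100 kb. The 30 regions held 420 of the 1735 members and lay on 13 chromosomes. The largest change had a median of 0.34 in regions of 1 set, 0.51 in regions of 5 and 0.67 in regions of 9. The 2 quantities are not independent, since the sets are shifted cuts of the same libraries. The 10 regions of 9 sets ranked after the first 20 had largest changes of 0.39 to 0.60 and lengths of 180 to 460 kb. Among them the region on chromosome 16 at 56480001 to 56730000, singled out after its values were seen, had the strongest signal at the window of largest change among the 30, 10.27 with PT2399 and 9.88 with DMSO.

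At 50 kb the same regions were mostly higher too. Inside the 447 regions, 6999 of 7991 windows of 50 kb (87.6%) were above 0. Limited to those with both concentrations at least 7, 5428 of 6256 (86.8%) were above 0, against 26.8% of the 99152 such windows on the autosomes. The median change of the 50 kb windows inside a region was at least 0.3 in 305 of the 447 regions (68.2%) and above 0 in 437. The 20 highest-ranked regions and the 5 others with a member at an FDR of 0.01 were all among the 305. Limited to 50 kb windows with both concentrations at least 7, 243 regions had a median of at least 0.3. The lowest such medians among the named regions were 0.19 on chromosome 17 at 71670001 to 71870000 and 0.22 on chromosome 15 at 39320001 to 39630000. Both window sizes count the same reads, so the 50 kb changes show only how evenly the change was spread within a region. For the mirrored regions, lower by at least 0.3, 864 of 1246 (69.3%) had a 50 kb median of -0.3 or less.

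**Figure D3:**
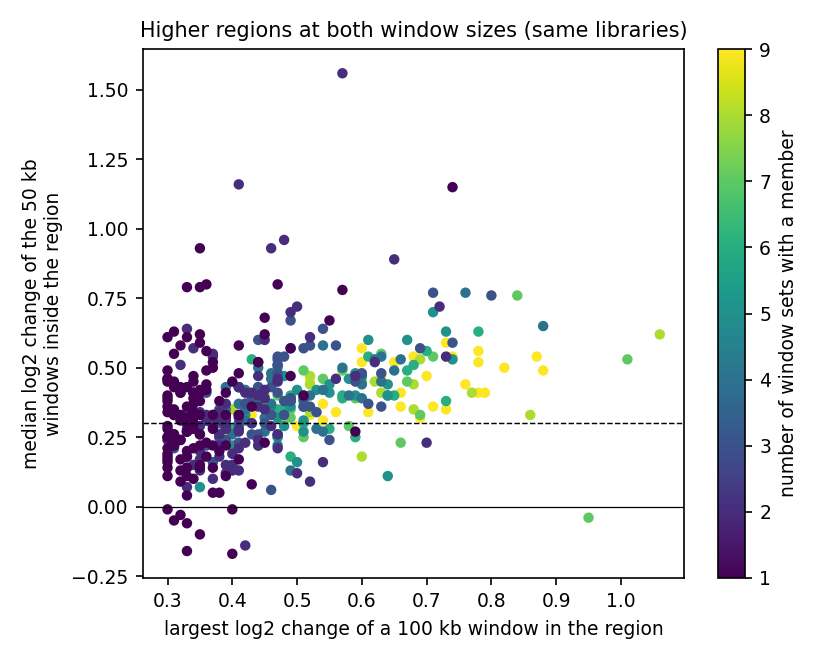
Median log2 change of the 50 kb windows inside each of the 447 higher regions against the largest log2 change of a 100 kb window there, coloured by the number of window sets with a member. The dashed line is 0.3, above which 305 regions lie, and 10 regions lie at or below the solid line at 0.

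The 50 kb windows divided the regions by how even they were. In the chromosome 4 region all 100 windows of 50 kb inside were above 0, from 0.02 to 1.18 with a median of 0.54. In the chromosome 10 region at 126120001 to 126430000 all 48 were above 0, with a median of 0.54 as well. The highest-ranked region, on chromosome 15, was less even, with 37 of 46 above 0 and a range of -0.47 to 1.56, and it held the lowest 50 kb FDR among the named regions, 0.000886 in the authors' deposited table. In the chromosome 17 region of largest change 21 of 28 were above 0, from -0.58 to 1.52. In the chromosome 8 region 19 of 28 were above 0, from -0.75 to 1.24. The changes of more than 1 at 100 kb thus came from regions where some 50 kb windows were lower with PT2399. Over all regions, 7 held a higher 50 kb window at an FDR of 0.01 or less in the authors' deposited tables, 13 windows in all. Among all 518328 autosomal 50 kb windows 279 were called higher at that FDR (0.0538%). With both concentrations at least 7 there were 6 of 99152 (0.00605%), and all 6 lay inside the regions, from which nothing is read since the rule used the same contrast.

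The same rule applied to 50 kb windows, with both concentrations at least 7, gave 5938 windows in 1378 regions (background 5.99%). Of the 447 regions, 433 (96.9%) overlapped one of these by at least 1 bp, while 540 of the 1378 (39.2%) overlapped one of the 447. In 10 of the 447 regions the 50 kb median was not above 0. Of these, 9 came from 1 or 2 sets, and the other was a region of 7 sets on chromosome 21 at 9740001 to 9910000, singled out after its values were seen. There the 100 kb window of largest change stood at 9.20 with PT2399 and 8.25 with DMSO, a change of 0.95 with an FDR of 0.541 in the authors' deposited table. Only 9 of its 22 windows of 50 kb were above 0, and the median was -0.04. The windows on both sides lay at the floor, the value of windows without signal (-0.11 with PT2399, -0.07 with DMSO, a change of -0.04). No 50 kb window inside the region was below -0.04, so that median does not show a lower signal. The 9 windows with both concentrations at least 7 had a median change of 0.52.

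Beside most higher regions the change was not carried on at full size. A region ends where overlapping windows stop meeting the rule, so nothing is read from that drop. The flanks, which are the windows that do not overlap a region and come within 100 kb of its edge, had a median change of -0.04 on the left and -0.05 on the right. Both flanks were above 0 in 74 regions (16.6%), 1 flank in 208 and neither in 165. A flank was at least 0.3 higher beside 133 regions and at least 0.3 lower beside 173. A flank was counted at the floor where its median was below 2 in both treatments. That was so in 22 regions, and on both sides in 2, the chromosome 21 region and one on chromosome 7 at 143000001 to 143120000. Around the mirrored lower regions the flanks had a median change of -0.13 on either side, and both were below 0 in 54.7%, while the median of all well-measured windows was itself below 0.

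Stepping out from each higher window in its own set, the median change of measured neighbours, those with both concentrations at least 2, was 0.02 at 100 kb to the left and 0.00 at 100 kb to the right. At 500 kb it was -0.06 on the left and -0.04 on the right, and at 1000 kb -0.09 and -0.05. Around windows that changed by less than 0.3 it stayed between -0.13 and -0.12 at each of these distances. The measured surroundings of higher windows thus lay slightly above those of the other windows. They also held more windows below 2 in both treatments, counted at the floor here. At 1000 kb to the right, 15.9% of the neighbours of higher windows were at the floor in both treatments, against 6.67% around windows changed by less than 0.3. Windows changed by less than 0.3 whose mean concentration was below 9 had 15.5% there, and their neighbours had a median change of -0.10 at 100 kb on either side. On the left the shares were 21.5% around higher windows and 19.1% around those. Neighbours include other members, so these values are no independent measure.

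**Figure D4:**
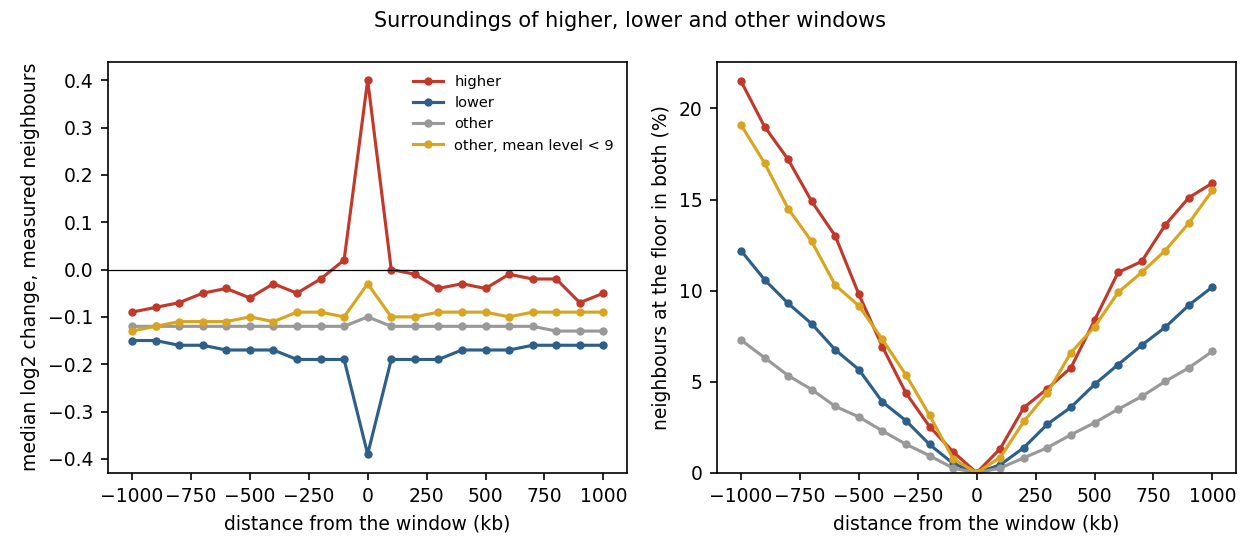
Left, median log2 change (PT2399 minus DMSO) of measured windows by distance in kb from higher, lower, other, and other windows of mean level below 9. Right, percentage of windows at that distance with both treatments at the floor (below 2). The higher windows peak at 0.40 and their neighbours at 100 kb lie at 0.02 and 0.00, while floor windows reach 21.5% on the left and 15.9% on the right at 1000 kb.

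A further higher region lay within 1 Mb of 336 of the 447 (75.2%), with a median distance of 260 kb to the nearest. Counted by window, 79.1% of the higher windows had a higher region other than their own within 1 Mb, against 41.0% of the well-measured windows that changed by less than 0.3. Among those of them with a mean concentration below 9 the share was 68.5%, a comparison chosen after seeing the data. Most of the gap between the shares was thus not seen against windows of low signal. Joined across gaps of up to 1 Mb they made 203 groups, of which 111 were single regions and 53 held at least 3, with 258 regions between them.

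The 8 groups of at least 8 regions had median changes between -0.06 and 0.11 over all their well-measured windows. With 12 regions each, chromosome 2 at 231640001 to 238780000 had a median change of -0.04 and chromosome 3 at 122700001 to 127680000 one of 0.06. On chromosome 4, 11 regions lay between 3610001 and 8630000, with a median of 0.03, and on chromosome 1, 10 lay between 226080001 and 230540000, with a median of -0.04. Chromosome 9 had 9 between 94620001 and 97580000, with a median of -0.01. The groups of 8 had medians of 0.11 on chromosome 17 between 70270001 and 72570000, 0.01 on chromosome 10 between 70140001 and 73050000 and -0.06 on chromosome 12 between 105000001 and 109550000. The share of windows above 0 ran from 39.1% in the chromosome 12 group to 65.6% in the chromosome 17 group. Over all well-measured windows it was 22.0%, and the groups hold members, which are above 0 by the rule. In 33 of the 53 larger groups the median was above 0, beside a median of -0.12 over all well-measured windows. Groups were built around members, so this is no comparison of like with like.

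The nearest window called lower at an FDR of 0.01 with both concentrations at least 2 was at a median distance of 2050 kb from a higher region. It was within 1 Mb of 127 regions and within 100 kb of 30, and it overlapped 5. Counted by window and leaving out calls that overlap it, 25.5% of the higher windows had such a call within 1 Mb, against 53.7% of the well-measured windows that changed by less than 0.3 and 33.3% of those with a mean concentration below 9. The gap between these shares was smaller at a low signal. On chromosome 1, the region at 115830001 to 116000000, a region of 7 sets, overlapped a window at 115960001 to 116060000 with 8.61 with PT2399 and 9.51 with DMSO (FDR 0.00324 in the authors' deposited table), so that a higher and a lower stretch adjoined. Outside the well-measured windows, many more were called higher. Over all 259029 autosomal windows 382 were (0.147%), and 365 of them had a DMSO concentration under 8. Of these 365, 29 overlapped a higher region, and 95 regions had one within 1 Mb. Counted by window as above, 22.4% of the higher windows had one within 1 Mb, against 4.55% of the windows that changed by less than 0.3 and 14.5% of those with a mean concentration below 9. These shares are descriptions with no test, since windows overlap and share reads. For example, the chromosome 10 region at 79010001 overlapped a window at 7.55 with PT2399 whose DMSO value was at the floor, -0.07 (FDR 1.47e-05 in the authors' deposited table). Likewise on chromosome 15, the region at 70420001 to 70580000 overlapped one at 8.76 with PT2399 and 7.56 with DMSO (FDR 0.00199 in the authors' deposited table). Of the 22 regions with such an overlap, 6 met a window with DMSO below 2, 8 one between 2 and 7 and 8 one of at least 7.

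Members lay on all 22 autosomes, in unequal shares. Chromosome 18 had the highest share of its well-measured windows among them, 19.3%, but it has only 109 such windows. Next came chromosome 4 (10.5%), chromosome 10 (8.80%), chromosome 7 (7.37%), chromosome 13 (7.28%) and chromosome 15 (7.15%). In numbers, chromosome 7 had the most member windows, 197, and chromosome 2 the most regions, 47. Chromosomes 3 and 7 each held 5 of the 30 regions of 9 sets, and chromosomes 10 and 15 held 4 each. The lowest shares belonged to chromosome 19, with 0.144% (6 of 4179 windows, in 2 regions), followed by chromosome 22 (1.06%), chromosome 14 (1.27%), chromosome 6 (1.32%) and chromosome 1 (1.44%). Neighbouring windows share reads, so no test was made between chromosomes.

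The chromosomes also differed in SON level. The median DMSO concentration of well-measured windows was 10.60 on chromosome 19 and 10.16 on chromosome 22, against 8.38 on chromosome 18. Restricted to windows with a mean concentration below 9, a comparison chosen after seeing the data, the share was 23.9% on chromosome 4, 19.3% on chromosome 18, 16.2% on chromosome 21 and 16% on chromosome 7. It was 1.88% on chromosome 19, 2.44% on chromosome 14, 4.70% on chromosome 11 and 5.03% on chromosome 1. At this signal chromosome 4 was first and chromosome 19 last, and chromosome 14 was low although 48% of its well-measured windows had a DMSO level below 9. Of the 75 members on chromosome 4, 72 lay in the group of regions between 3610001 and 8630000. The region at 7080001 to 7680000 alone held 40. The chromosome 4 shares thus came mostly from a single stretch and not from the whole chromosome.

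**Figure D5:**
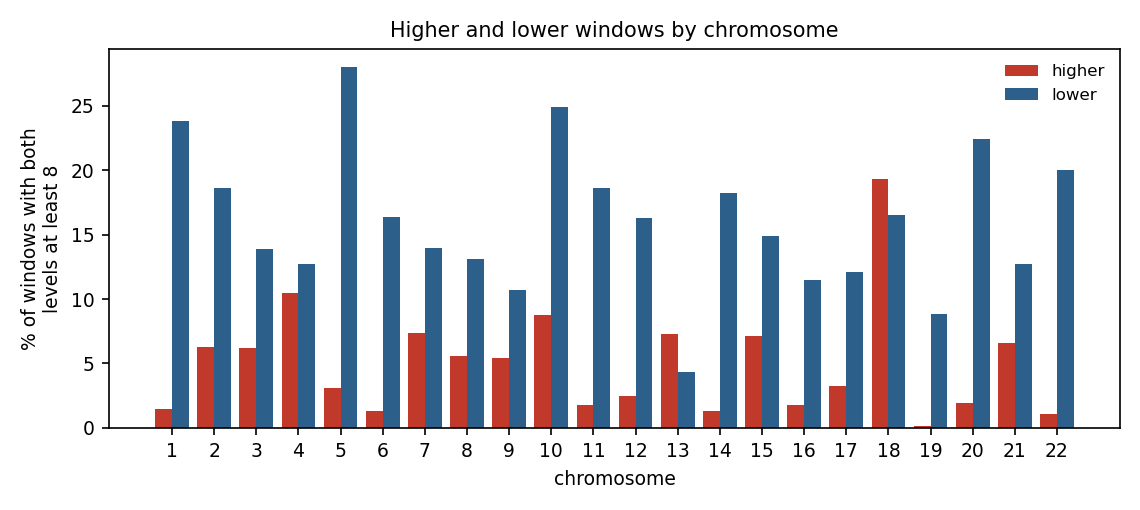
Percentage of the autosomal 100 kb windows with both log2 concentrations at least 8 that were higher (left bars) or lower (right bars) by at least 0.3 with PT2399, by chromosome. Higher windows make up 19.3% on chromosome 18, 10.5% on chromosome 4 and 0.144% on chromosome 19, and only on chromosomes 13 and 18 are they more than the lower ones.

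Higher windows lay at the weaker end of the well-measured range. The DMSO concentration was below 9 in 1499 of 1735 (86.4%), against 24.6% of all well-measured windows, and at least 10 in only 2. By mean concentration, 11.4% of windows between 8 and 8.5 were members, 8.88% between 8.5 and 9, 3.57% between 9 and 9.5, 0.977% between 9.5 and 10 and 0.115% between 10 and 10.5. Above 10.5 there was none among 11302 windows, although 537 windows there were called lower at an FDR of 0.01 in the authors' deposited tables. Lower windows made up 20.7% of the lowest class, 28.3% of the next and 4.32% of the class above 10.5. The quartiles of the change were -0.25 and 0.13 in the lowest class and closer together, -0.18 and -0.05, above 10.5, so a fixed limit of 0.3 lay farther out where the signal was strong. The member of strongest signal, chosen after its value was seen, lay on chromosome 1 at 26100001 to 26200000 with 10.55 with PT2399 and 10.25 with DMSO (FDR 0.019 in the authors' deposited table).

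Higher windows were less frequent near chromosome ends. Within 5 Mb of the first or last window of a chromosome lay 9.91% of the members, against 14.5% of the windows lower by at least 0.3 and 19.3% of all well-measured windows. No share was taken here for windows of like signal, so the weaker signal of higher windows was not separated from position. Each set gave 177 to 210 members, or 3.15% to 3.76% of its well-measured windows, so no window start stood apart.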

How the data were processed

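SON TSA-seq was run on 2 pulldowns and 2 inputs per treatment, grouped by title. Bowtie2, Picard, bedtools, DiffBind and hg19 come from the submitters' processing notes. Versions, roles, scaling and the use of inputs are not stated there. For each window the authors deposited log2 concentrations (a mean per treatment), a log2 fold of control minus treatment, a p-value and an FDR, per the file headers. There are 9 sets of 100 kb windows (step 10 kb) and 9 of 50 kb (step 5 kb). The sign was turned here to PT2399 minus DMSO, from the concentrations, which match the fold within 0.01. Deposited lists of lower windows and their genes were not used here. Depth is unknown.

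The members and lists were chosen with earlier results of these data known. Windows were merged at an overlap of 1 bp and ranked by number of sets, then by largest change. The rule for names took the 20 highest ranked, each region with a member at an FDR of 0.01 or less, and windows beside the limits. Other regions named were singled out after their values were seen. Gene lists were set aside for want of hg19 gene positions. Merging was run on simulated windows without noise, where 4 of 4 planted regions came back with 0 false ones. With no noise this checks the code only and gives no error rate. The Benjamini-Hochberg adjustment was checked separately, on random p-values. Alternatives covered the limits, the scaling, the sets, merging, the FDR and the 50 kb rule. Work was done in Python 3.11.15 with pandas 2.3.3, numpy 2.4.6, matplotlib 3.10.9 and scipy 1.17.1.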

Additional observations from a re-analysis of the deposited data

How the results depend on the processing

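The counts depend on the limits. The 1735 windows in 447 regions became 4443 in 954 with a minimum concentration of 7, and 236 in 80 with 9. They became 3234 in 700 with a minimum change of 0.2, and 418 in 153 with 0.5. With each set recentred on its median change they were 3663 in 755, since recentring adds to every change. Single sets, with fewer windows, gave 191, 193, 193, 210, 189, 195, 177, 183 and 204 regions. Regions of at least 5 sets numbered 129, of which 106 had a 50 kb median of at least 0.3 (chosen after seeing the data). Merging at 50 kb shared gave 482 regions and bridging gaps of 100 kb gave 370. The 17 members at an FDR of 0.01 became 91 at 0.05 and 189 at 0.1, and there were also 17 with Benjamini-Hochberg adjustment over all 9 sets. The 305 regions with 50 kb agreement became 243 with 50 kb windows of at least 7, 433 by the 50 kb rule and 437 with a median above 0. Beyond the changed limits the cause was not tested. No paired analysis was possible because the tables hold group means only, and for the same reason no replicate could be left out.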
